A study of Homo sapiens with 6 samples.

Results

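The genes described here serve the unfolded protein response and protein folding in the endoplasmic reticulum (ER). They were taken by symbol from a list of 34. All 34 were among the 35793 genes of the deposited table, and all 34 passed the minimum for testing, a mean of 10 normalized counts over the libraries. The RNA came from cardiomyocytes that had been differentiated from human stem cells of the WTC11 line, an established induced pluripotent line, and harvested on day 15. Unedited WTC11 cells made up the wild-type group (3 libraries), and WTC11 cells with a homozygous STK25 knockout made with CRISPR/Cas9 made up the knockout group (3 libraries). No treatment is named for either. The kinase STK25 belongs to the STRIPAK complex. The labels name 1 knockout line, and its edit cannot be told apart from other differences between the 2 lines.

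Proteins that enter the secretory pathway fold in the ER with the help of chaperones and enzymes that form disulfide bonds. When unfolded protein builds up, 3 membrane sensors respond. ATF6 is cut to release a transcription factor, ERN1 (IRE1) splices XBP1 mRNA, and EIF2AK3 (PERK) phosphorylates eIF2 so that most translation slows while ATF4 protein is made. ATF6 and spliced XBP1 chiefly raise chaperones and ER-associated degradation (ERAD) genes, while ATF4 raises amino acid enzymes, DDIT3 (CHOP) and further stress genes. Other eIF2 kinases also lead to ATF4 without any ER stress, an arrangement called the integrated stress response. Gene totals show neither XBP1 splicing nor any protein.

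The sequences that tie many of these genes together are ER stress elements in their promoters, to which ATF6 and XBP1 bind. RefSeq promoter windows (GRCh38.p14, 250 bases before to 50 after each start) were found for 30 of the 34 genes and searched on both strands. The first element, ERSE (CCAAT, then any 9 bases, then CCACG), was in a window of 7 of the 30 genes, and in 0.0769% of all 35116 windows. ERSE-II (ATTGG, any base, then CCACG) was in 3 of the 30, and in 0.0541% of all windows. Stretches that hold them follow for the 2 such genes that were higher in the knockout, XBP1 and HERPUD1, and for 6 of the 8 that did not pass the test, with the elements in capitals and 5′ to 3′ along the gene's strand.
XBP1 (chr22:28800573-28800651, minus strand): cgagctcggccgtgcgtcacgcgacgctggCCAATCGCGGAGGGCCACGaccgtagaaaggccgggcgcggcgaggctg
HERPUD1 (chr16:56931995-56932065, plus strand): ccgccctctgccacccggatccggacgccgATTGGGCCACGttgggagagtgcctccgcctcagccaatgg
HSPA5 (chr9:125241361-125241439, minus strand): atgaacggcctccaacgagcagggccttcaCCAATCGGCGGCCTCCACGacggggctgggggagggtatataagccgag
HSP90B1 (chr12:103930186-103930369, plus strand): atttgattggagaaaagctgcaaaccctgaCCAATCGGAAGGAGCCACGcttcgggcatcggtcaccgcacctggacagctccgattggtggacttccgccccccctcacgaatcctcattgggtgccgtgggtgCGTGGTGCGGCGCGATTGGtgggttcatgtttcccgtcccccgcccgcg
HYOU1 (chr11:119057244-119057423, minus strand): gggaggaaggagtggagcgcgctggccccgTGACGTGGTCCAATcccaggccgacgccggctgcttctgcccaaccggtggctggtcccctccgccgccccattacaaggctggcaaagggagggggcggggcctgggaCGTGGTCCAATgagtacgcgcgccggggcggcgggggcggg
CALR (chr19:12938359-12938432, plus strand): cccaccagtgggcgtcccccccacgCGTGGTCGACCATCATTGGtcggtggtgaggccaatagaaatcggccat
SDF2L1 (chr22:21642084-21642154, plus strand): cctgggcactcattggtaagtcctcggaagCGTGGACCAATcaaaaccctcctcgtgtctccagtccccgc
CRELD2 (chr22:49918524-49918602, plus strand): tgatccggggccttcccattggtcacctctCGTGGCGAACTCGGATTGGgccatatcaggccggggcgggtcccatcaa
Matches that read CGTGG first are the element on the opposite strand. In HYOU1 the first run of capitals joins an ERSE-II to an overlapping UPRE (TGACGTGG), a further XBP1 element that was in 0.729% of all windows.

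Library depth ran from 22443904 to 53224112 reads assigned to genes, a 2.37-fold range, and no member had fewer than 44 reads in any library. STK25 was at 8874, 6774 and 8710.4 normalized counts in wild-type replicates 1, 2 and 3 and at 3906, 3434 and 3819.7 in the knockout replicates, a log2 fold change of -1.12 (SE 0.19, limma adjusted p = 0.00903), with an adjusted p of 0.0609 when wild-type replicate 1 was left out. Wild-type replicate 2 and knockout replicate 1 stood apart from the other libraries of their genotype. Log2 values of wild-type replicates 1 and 3 correlated at 0.971 across genes and those of knockout replicates 2 and 3 at 0.971, against 0.945 to 0.946 and 0.921 to 0.933 for the pairs that held one of the set-apart libraries. Counts of members and of the other pathway genes called are therefore also given without these 2 libraries, an alternative chosen after the data were seen, and those of cell type markers with all 6 libraries only. Because the 2 were picked for deviating from their fellow libraries, leaving them out narrows the spread within each genotype. P-values of that fit are therefore too low. It called 28.9% of all tested genes, beside 12.8% with all 6 libraries. All 10 cardiomyocyte markers examined, TNNT2 and ACTN2 among them, were detected, with summed levels of 1350100 to 1721800 normalized counts in wild-type and 1973040 to 3665880 in knockout libraries. Of the 10, 0 were called higher and 0 lower, beside 5.97% and 6.79% of all tested genes. The markers were not unchanged, however. At an unadjusted limma p under 0.05, MYH7, TNNI3, ACTN2, MYL7 and TTN were higher and MYH6 was lower. At that level 13.2% of all tested genes were higher and 14.3% lower. None of these markers overlapped between genotypes, as was true of 33.4% of all tested genes. MYL7 was the largest part of the sum, with means of 541523 in the wild type and 1481020 in the knockout. Knockout means of MYH6 (43.6% of the wild type), TNNI1 (74.3%) and RYR2 (90.0%) were lower, and those of the other markers were higher.

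With all 6 libraries, members that passed the test were the 3 transcription factors, 3 of the 4 targets of ATF4 and CHOP, and 1 degradation gene. With limma over all 15536 tested genes and a Benjamini-Hochberg adjusted p under 0.05, TRIB3, CHAC1, ASNS, DDIT3, HERPUD1, ATF4 and XBP1 were higher in the knockout and none was lower. That was 7 of 34 genes, or 20.6%, where 12.8% of all tested genes were called, 5.97% higher and 6.79% lower. Scaling to equal library totals moved the median of all genes to -0.27 and called 3.53% of them higher and 9.38% lower, and with it 4 members higher and 0 lower. At an unadjusted p under 0.05 there were 8 higher and 2 lower members, the lower ones being ATF6 and PDIA4, or 29.4% of the 34 beside 27.5% of all tested genes. edgeR called the same 7 higher and 0 lower, beside 5.57% of all genes higher and 6.42% lower. DESeq2 called 8 higher and 1 lower, adding DERL2 and PDIA4, beside 10% and 10.7% of all genes. The median log2 fold change of the 34 was 0.16, and that of all genes 0.0052. The count of 7 fell to 3 without wild-type replicate 1, to 2 without wild-type replicate 3 and to 2 without knockout replicate 3, fits in which 2.57%, 2.92% and 2.38% of all genes were called higher. TRIB3 and ASNS were called in each of the 20 alternatives. Without both set-apart libraries, 11 members, the chaperone CANX and the cofactor DNAJB11 among them, were higher and 4 lower, beside 14.9% and 14% of all genes. RNA came from whole cultures, so fewer cells of a type and less RNA per cell cannot be told apart.

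**Figure D1:**
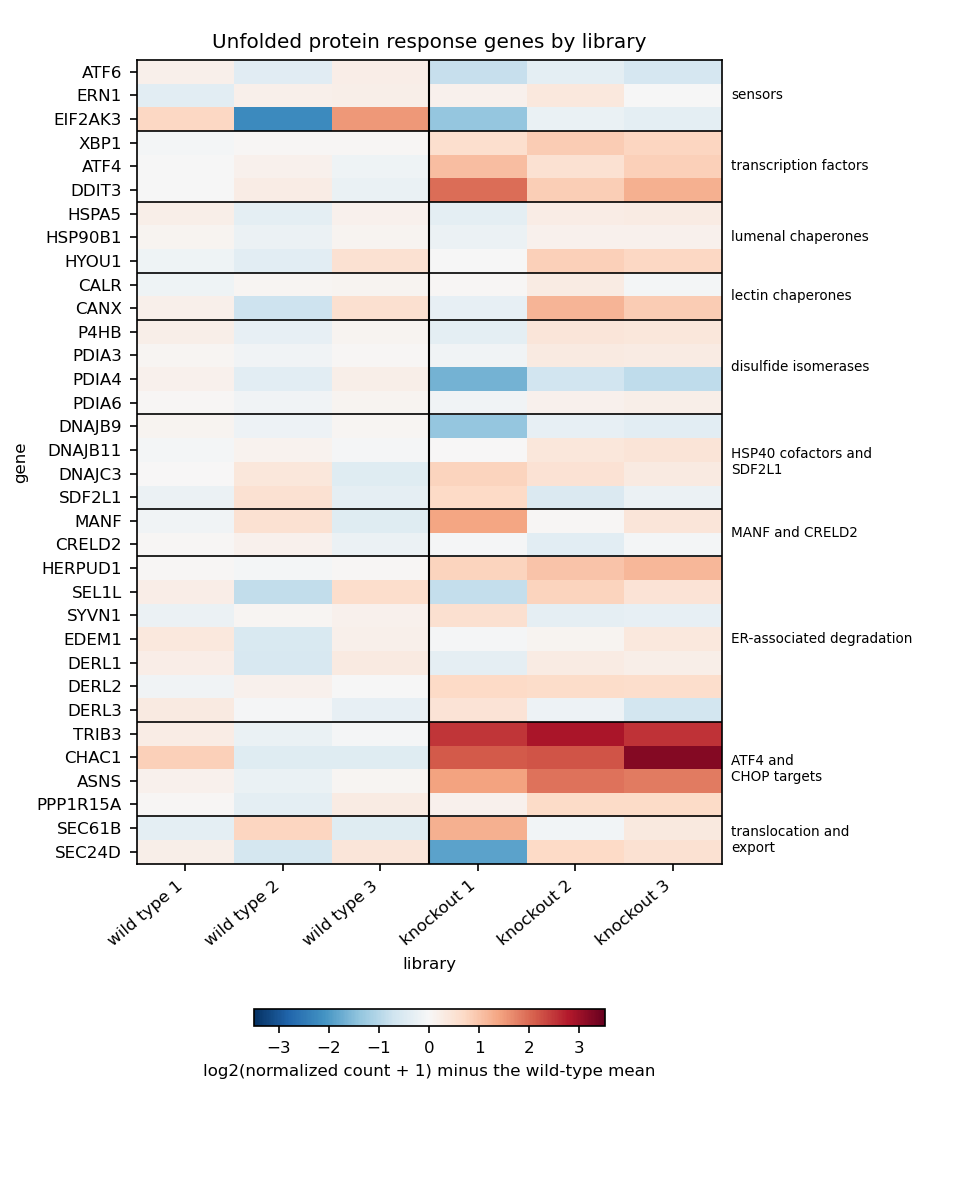
Heat map of the 34 genes (rows, grouped by role) in the 6 libraries (columns); colour is log2(normalized count + 1) minus the gene's wild-type mean, red higher and blue lower. TRIB3, CHAC1 and ASNS are red in all 3 knockout libraries, the HSPA5, HSP90B1, CALR and PDIA6 rows are pale throughout, and PDIA4 is blue in all 3 knockout libraries.

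Of the 4 targets of ATF4 and CHOP, 3 had the largest differences of the 34. TRIB3, a pseudokinase induced by ATF4 and CHOP that restrains ATF4 activity, was at 163, 116 and 131 normalized counts in wild-type replicates 1 to 3 and at 774, 993 and 785 in knockout replicates 1 to 3. The lowest knockout library was thus far above the highest wild-type library, and means were 137 ± 24.1 and 851 ± 123 (SD, n = 3 each). TRIB3 rose by 2.63 on the log2 scale (SE 0.26, limma adjusted p = 0.000971). Over all alternatives its log2 fold change stayed between 2.35 and 2.77. TRIB3 lies on chromosome 20 from 362835 to 397559 on the plus strand (GENCODE 29, GRCh38, as for all gene positions here).

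CHAC1, an enzyme that degrades glutathione, was at 81.6, 33.5 and 33.2 normalized counts in the wild type and 201, 211 and 425 in the knockout. Its libraries did not overlap, although knockout replicate 3 was well above the other knockout libraries. Mean levels were 49.4 ± 27.8 and 279 ± 127 (SD, n = 3 each), and CHAC1 rose by 2.52 on the log2 scale (SE 0.49, limma adjusted p = 0.0155). Leaving out wild-type replicate 3 or knockout replicate 3 ended the call, with adjusted p-values of 0.0631 and 0.0659. The gene lies on chromosome 15 from 40952962 to 40956519 (plus strand).

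ASNS, which makes asparagine, was at 1288, 989 and 1199 normalized counts in the wild type and 3041, 4317 and 4059 in the knockout. The genotypes were clearly separate, with means of 1159 ± 153 and 3805 ± 675 (SD, n = 3 each). The log2 fold change was 1.71 (SE 0.22, limma adjusted p = 0.00265), between 1.43 and 1.86 over the alternatives. ASNS lies on chromosome 7 from 97852118 to 97872542 (minus strand), and its 114 tested neighbours within 5 Mb had a median log2 fold change of -0.02. PPP1R15A (GADD34), the phosphatase subunit that reverses eIF2 phosphorylation, was at 2704, 2092 and 3216 normalized counts in the wild type and 2912, 4191 and 4173 in the knockout. Its genotypes overlapped and it was not called (log2 fold change 0.50, SE 0.24, limma adjusted p = 0.234); without both set-apart libraries PPP1R15A passed (0.50, adjusted p = 0.0250).

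All 3 transcription factors were called higher. ATF4, the factor made when eIF2 is phosphorylated, was at 7983, 8921 and 7226 normalized counts in the wild type and 17100.4, 11635 and 14175 in the knockout. No knockout library was as low as the highest wild-type library, and the log2 fold change was 0.82 (SE 0.21, limma adjusted p = 0.0421). The ATF4 call was close to the threshold: it was lost when any 1 of the 6 libraries was left out, with adjusted p-values up to 0.160. Without the 2 set-apart libraries it passed at 0.76 (adjusted p = 0.00432). ATF4 lies on chromosome 22 from 39519695 to 39522685 (plus strand).

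DDIT3, encoding CHOP, a factor tied to prolonged stress and cell death, was at 1704, 2069 and 1472 normalized counts in the wild type and 6753, 3146 and 4091 in the knockout. Knockout replicate 1 was the highest, and all 3 exceeded every wild-type library. Mean levels were 1748 ± 301 and 4664 ± 1870.5 (SD, n = 3 each), and DDIT3 rose by 1.35 on the log2 scale (SE 0.30, limma adjusted p = 0.0249). The call was lost on leaving out replicate 1 or 3 of the wild type or replicate 3 of the knockout (adjusted p at most 0.0987). DDIT3 lies on chromosome 12 from 57516588 to 57521737 (minus strand), and 355 of its 1307 exonic bases lie opposite exons of MARS1. Whether strand was used in counting is not given in the sources used here, so reads of the 2 genes may not have been told apart there.

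XBP1, the factor activated through splicing by ERN1, was at 6179, 6719 and 6683 normalized counts in the wild type and 9807, 12109.7 and 10938 in the knockout. The wild-type libraries lay close together and below all knockout libraries. Mean levels were 6527 ± 302 and 10952 ± 1152 (SD, n = 3 each), and XBP1 rose by 0.74 on the log2 scale (SE 0.18, limma adjusted p = 0.0320). With all library totals made equal it was 0.46 with an adjusted p of 0.215, and leaving out any library but knockout replicate 1 put the adjusted p over 0.05, up to 0.155. XBP1 lies on chromosome 22 from 28794555 to 28800597 (minus strand).

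**Figure D2:**
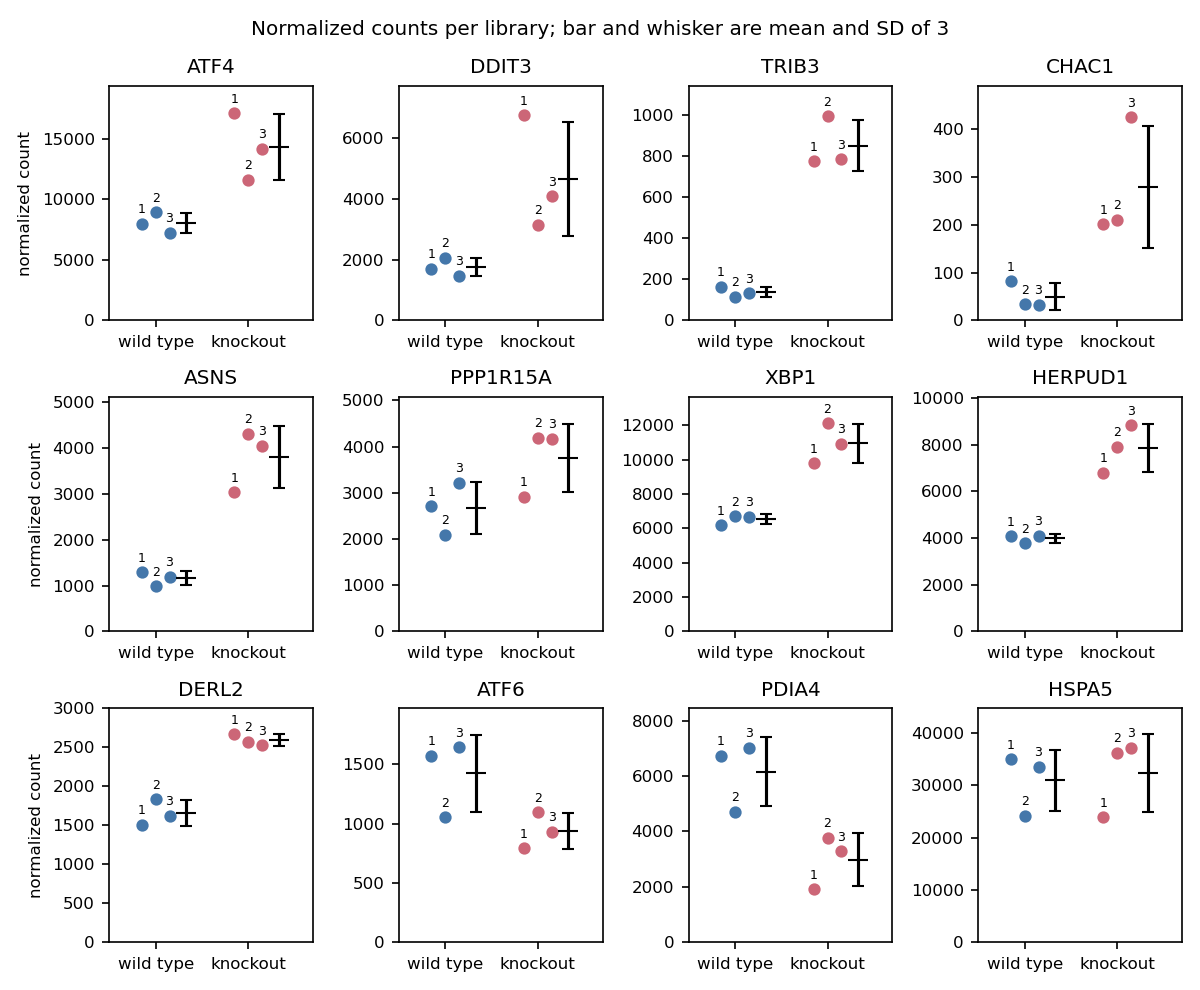
Normalized counts of 12 members in each library (points, numbered by replicate; wild type blue, knockout red), with the mean and SD of 3 libraries as black bars; each vertical axis starts at 0. The knockout points of ATF4, DDIT3, TRIB3, CHAC1, ASNS, XBP1, HERPUD1 and DERL2 all lie above the wild-type points, those of PDIA4 lie below, and PPP1R15A, ATF6 and HSPA5 overlap.

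The 3 sensors upstream were not called. ATF6 was at 1574, 1053 and 1645 normalized counts in the wild type and 792, 1096 and 934 in the knockout, so that only wild-type replicate 2 reached into the knockout range. Its log2 fold change was -0.58 (SE 0.25, limma adjusted p = 0.177). ERN1 was at 110.3, 159 and 163 against 158, 183 and 141 normalized counts, which overlap (log2 fold change 0.17, 95% interval -0.55 to 0.89, limma adjusted p = 0.784). EIF2AK3 was at 337, 42.7 and 590.1 in the wild type and 80.1, 174 and 160.0 in the knockout. Wild-type replicate 2 was the lowest of all 6 libraries for this gene, and its log2 fold change of -0.64 had an SE of 0.90 (limma adjusted p = 0.708). Without the 2 set-apart libraries, ATF6 (-0.67, adjusted p = 0.0162) and EIF2AK3 (-1.41, adjusted p = 0.0133) were called lower in the knockout. That choice narrows the spread, and for EIF2AK3 it took out the wild-type value of 42.7, which lay below all knockout libraries. Leaving out wild-type replicate 3 alone turned the sign of EIF2AK3, to 0.12.

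The ER chaperones and folding enzymes were 3 lumenal chaperones, 2 lectin chaperones, 4 disulfide isomerases and a group of 4 with SDF2L1 and the HSP40 cofactors. With all 6 libraries 0 of them were called higher and 0 lower, beside 5.97% and 6.79% of all tested genes. In groups this small, 0 calls is near those shares. HSPA5 (BiP), the most abundant lumenal chaperone and a regulator of all 3 sensors, was at 35014, 24162 and 33541 normalized counts in the wild type and 23846, 36234 and 37190.2 in the knockout. The genotypes overlapped fully, with the set-apart library the lowest in each. Its log2 fold change was 0.06, with a 95% interval from -0.56 to 0.67 (limma adjusted p = 0.919), so a change of the size seen for ASNS lay outside the interval. HSP90B1 (GRP94), the ER member of the HSP90 family, was at 18234, 14596 and 18161 against 14694, 18807 and 18868 normalized counts, a log2 fold change of 0.04 (95% interval -0.44 to 0.51). HYOU1 (GRP170), which exchanges nucleotide on HSPA5, had a log2 fold change of 0.51 (95% interval -0.22 to 1.25, limma adjusted p = 0.350). The direction of the HSPA5 and HSP90B1 differences, small as they are, turned negative with equal totals and with quantile normalization.

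The lectin chaperones hold newly made glycoproteins. CALR, the soluble one, was at 5022, 5800.1 and 5914 normalized counts in the wild type and 5779, 6808 and 5293 in the knockout (log2 fold change 0.09, 95% interval -0.34 to 0.52), which also turned negative under those 2 scalings. CANX, its membrane-bound relative, was at 11632, 6235 and 15163 against 8445, 23380.2 and 18950.1, with the set-apart library the lowest in each genotype. It was not called with all libraries (0.59, SE 0.45, limma adjusted p = 0.458) but was without the 2 set-apart ones (0.66, adjusted p = 0.0167).

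Among the disulfide isomerases, which form and rearrange disulfide bonds, PDIA4 differed in direction from the others. P4HB, PDIA3 and PDIA6 had log2 fold changes of 0.15, 0.16 and 0.08, each with an SE of 0.27 or less and an adjusted p of at least 0.669, and each turned negative with equal totals and with quantile normalization. PDIA4 (ERp72) was at 6729, 4716 and 7017 normalized counts in the wild type and 1908, 3777 and 3280.3 in the knockout. All 3 knockout libraries were below the wild-type ones, as was true of 17.2% of all tested genes, with means of 2988 ± 968 and 6154 ± 1253 (SD, n = 3 each), or 48.6% of the wild type. The log2 fold change was -1.08 (SE 0.30, limma adjusted p = 0.0539), just over the threshold. It was past the threshold in 6 of the 20 alternatives, DESeq2 (adjusted p = 0.00985) and the fit without the set-apart libraries (adjusted p = 0.00104) among them. PDIA4 lies on chromosome 7 from 149003062 to 149028641 (minus strand), where its neighbours were lower as well: of the 59 other tested genes within 5 Mb, 51 had a log2 fold change below 0 and 27 were called lower, with a median of -1.18. The same median ran from -0.43 to 0.22 around the other 33 members, and the part of the neighbourhood in the PDIA4 value was not tested.

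HSPA5 works with HSP40 cofactors. DNAJB9 (ERdj4), a strong XBP1 target that also represses ERN1, was at 3998, 3267 and 3935 normalized counts in the wild type and 1450.3, 3043 and 2899 in the knockout, with no overlap. It was not called (-0.67 on the log2 scale, SE 0.30, limma adjusted p = 0.202), and without the set-apart libraries DNAJB9 was called lower (-0.42, adjusted p = 0.0353). DNAJB9 is also on chromosome 7 (108569568 to 108574850, plus strand), but its 34 tested neighbours within 5 Mb had a median log2 fold change of 0.01. DNAJB11 (ERdj3), which delivers clients to HSPA5, had 0.29 (SE 0.19) and DNAJC3 (p58IPK), a cofactor known to inhibit eIF2 kinases, 0.53 (SE 0.27), with adjusted p-values of 0.389 and 0.244. Without the set-apart libraries DNAJB11 was called higher (0.47, adjusted p = 0.0221). SDF2L1, a partner of DNAJB11, was at 1300.5, 2179.9 and 1209 normalized counts against 2451, 1067 and 1318, a log2 fold change of 0.00 (95% interval -0.84 to 0.85). Of the 2 stress-induced proteins that can be secreted, MANF had 0.61 (SE 0.39, limma adjusted p = 0.361) and CRELD2 -0.16 (SE 0.20, limma adjusted p = 0.665).

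Degradation genes remove proteins that fail to fold by passing them to the cytosol. HERPUD1, which organizes the ubiquitin ligase complex at the ER membrane, was at 4092, 3775 and 4101 normalized counts in the wild type and 6807, 7922 and 8845 in the knockout. The wild-type libraries were nearly equal and the lowest knockout library was well above them. Mean levels were 3989 ± 186 and 7858 ± 1020.4 (SD, n = 3 each), and HERPUD1 rose by 0.97 on the log2 scale (SE 0.18, limma adjusted p = 0.0131). Equal totals ended the call (0.69, adjusted p = 0.0992), as did leaving out replicate 1 or 3 of the wild type or replicate 3 of the knockout (adjusted p at most 0.0707). HERPUD1 lies on chromosome 16 from 56932048 to 56944863 (plus strand).

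DERL2, a derlin of the degradation channel, was at 1509, 1837 and 1623 normalized counts in the wild type and 2669, 2571 and 2527 in the knockout. Its groups did not overlap, as was true of 33.4% of all tested genes, 16.2% in that direction, and it missed the threshold (log2 fold change 0.65, SE 0.18, limma adjusted p = 0.0507). DERL2 was past the threshold without the set-apart libraries (0.70, adjusted p = 0.00645), with DESeq2 (0.00469), with a minimum mean of 50 (0.0478) and with a pseudocount of 10 (0.0494). Its relatives DERL1 and DERL3 had log2 fold changes of 0.06 (SE 0.29) and -0.12 (SE 0.35). The ligase SYVN1 (HRD1), its partner SEL1L and the mannosidase-like EDEM1 had -0.01 (SE 0.34), 0.14 (SE 0.51) and 0.14 (SE 0.36), with adjusted p-values from 0.853 to 0.988. SYVN1 shares 398 exonic bases with FAU on the same strand, and 2923 of the 3796 exonic bases of DERL3 lie opposite SMARCB1, so the values of SYVN1 and DERL3 are uncertain. Of the genes that move proteins into and out of the ER, SEC61B, a subunit of the translocation channel, had 0.50 (SE 0.42) and SEC24D, a cargo adaptor of COPII vesicles, -0.22 (SE 0.67), neither of them called.

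**Figure D3:**
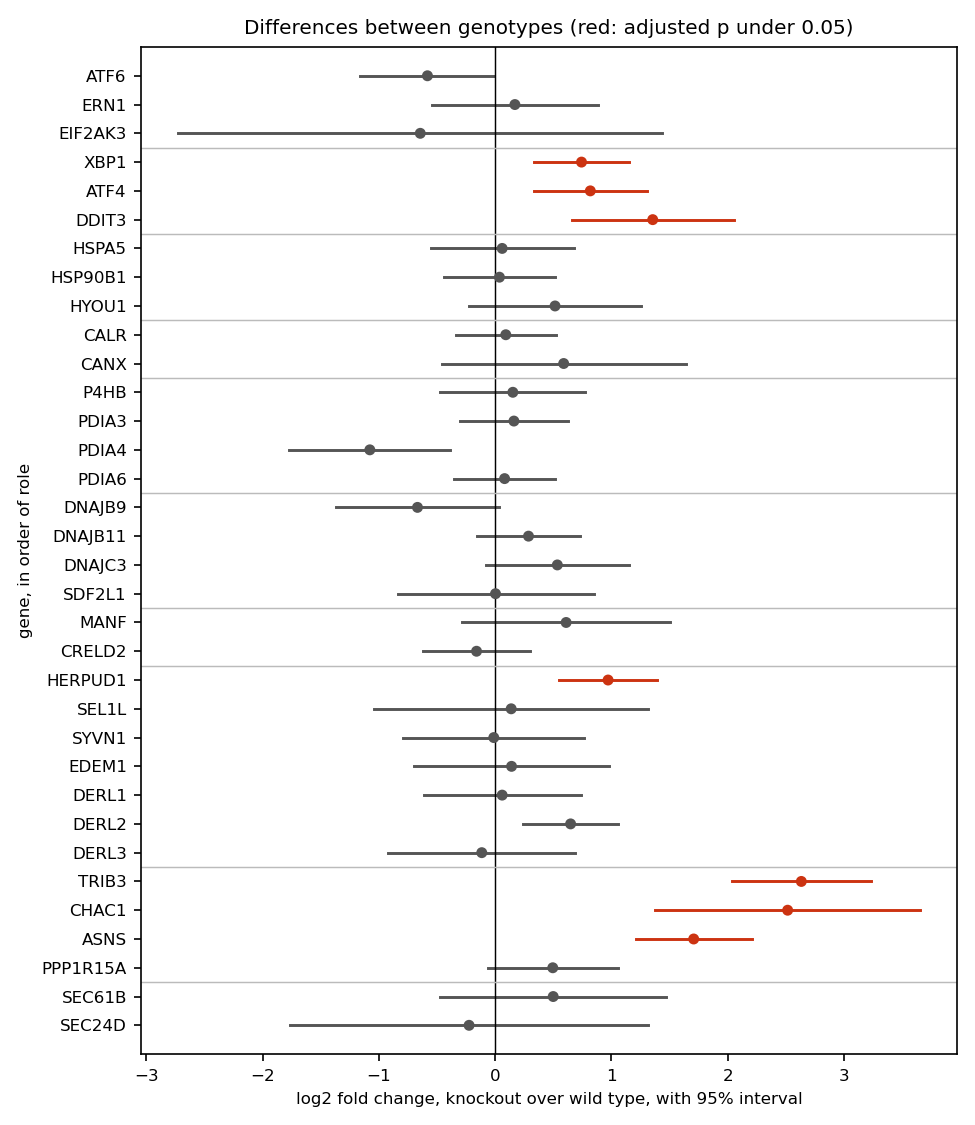
Log2 fold change of each of the 34 genes, knockout over wild type (points), with limma's 95% interval (lines), in order of role; red marks an adjusted p under 0.05. The 7 red genes are all to the right of 0, PDIA4 at -1.08 lies farthest left, and the intervals of EIF2AK3, SEC24D and SEL1L are the widest.

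Per kilobase of principal transcript, HSPA5 had the highest mean in the wild type, 7908 ± 1506 normalized counts (SD, n = 3). SEC61B followed with 6303 ± 3063, then HSP90B1 with 5947 ± 728, P4HB with 5772 ± 994 and PDIA6 with 5618 ± 450, neighbours whose SDs overlap. In the knockout the mean of SEC61B (8945 ± 4349) was above that of HSPA5 (8297 ± 1905), with SDs that overlap. The SEC61B means were lifted by the set-apart library of each genotype. Before division by length, SEC61B was at 7539 normalized counts in knockout replicate 1, beside 2999 and 4086 in replicates 2 and 3. In wild-type replicate 2 it was at 5361, beside 2545 and 2400 in replicates 1 and 3. ATF4 mRNA was at 3984 ± 420 per kilobase in the wild type, where 5 members were above it, and at 7084 ± 1355 in the knockout, where 2 members were above it. On the same scale TRIB3 had 54.7 and 340.4, and CHAC1 31.7 and 179, so that both were among the 10 least abundant members in each genotype. The sensors were scarce, with ERN1 at 18.3 and EIF2AK3 at 69.6 per kilobase in the wild type.

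The spread within a genotype went with transcript length among these genes. Wild-type replicate 2 and knockout replicate 1 deviated from their 2 fellow libraries in the same direction for 29 of the 34 members. SEC61B, the shortest transcript at 545 bases, was higher in both by 1.12 and 1.11 log2 units, and MANF (1153 bases) by 0.81 and 1.14. SEL1L, the longest at 7925 bases, had log2 offsets of -1.30 and -1.45, and CANX (4260 bases) -1.09 and -1.32. Across the 34 genes, which share these libraries and are not independent replicates, the offset correlated with log2 length at Pearson r = -0.53 (Spearman rho = -0.54) in wild-type replicate 2 and -0.61 (-0.53) in knockout replicate 1. Over 15431 tested genes with a length it was -0.33 (-0.40) and -0.20 (-0.25). When each library's trend over length was removed, an alternative added after the data were seen, the same 7 members were called higher and PDIA4 was called lower (-1.05, adjusted p = 0.0129), beside 9.70% and 9.64% of all genes.

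**Figure D4:**
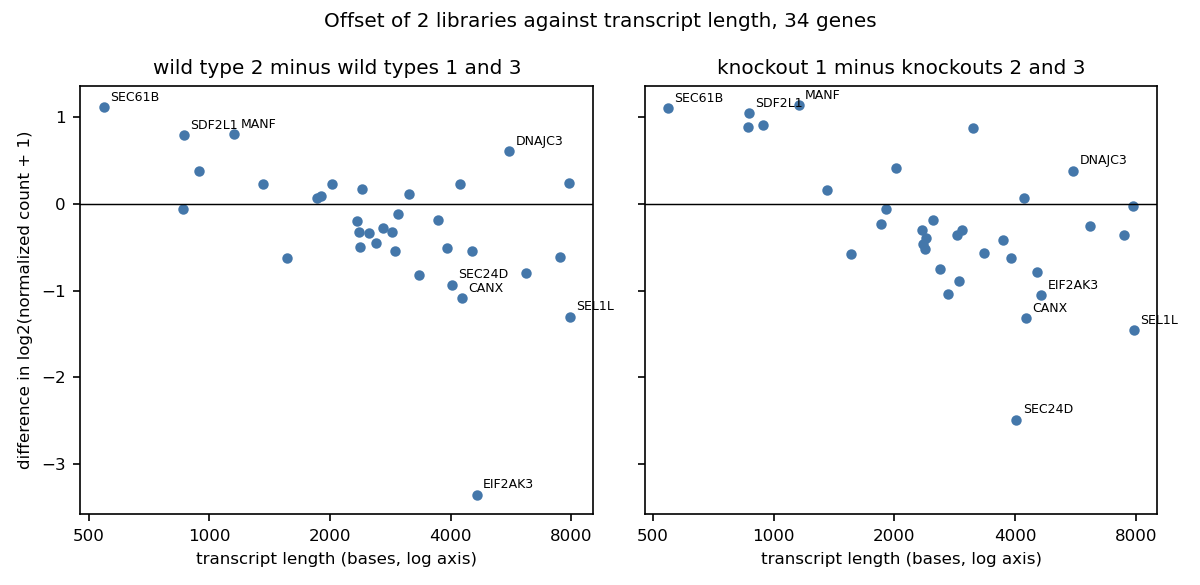
Difference in log2(normalized count + 1) between a set-apart library and the mean of the other 2 libraries of its genotype (vertical axis) against transcript length in bases (log axis) for the 34 genes; left, wild-type replicate 2, right, knockout replicate 1. Short transcripts such as SEC61B lie above 0 and long ones such as SEL1L and CANX below in both panels. Exceptions are DNAJC3 and DERL2 (4209 bases), above 0 in both, and, on the left, ERN1 (7876 bases) above 0 and DERL3 (860 bases) just below.

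The ER stress elements were found among called and uncalled members. ERSE or ERSE-II was in a window of 10 of the 30 members with one: 2 of the 7 called higher (XBP1 and HERPUD1) and 8 of the 23 not called. Members with an element had a median log2 fold change of 0.09 (range -0.16 to 0.97), and the other 24 members one of 0.17 (range -1.08 to 2.63). Those 24 include the members without a window, which were not searched. Among 11582 tested genes with a window, 30 (0.259%) had an element, so members made up 10 of those 30. Of the 20 others, 3 were called higher and 0 lower, beside 5.97% and 6.79% of all tested genes. The median log2 fold change of the 20 was 0.16. The 3, named after their values were seen, were SYNPO, NAV2 and ZNF143, with limma adjusted p-values of 0.0200, 0.0104 and 0.0378. The ATF4 and CHOP composite element was searched only in a form whose last base is T (TGATGNAAT). That form was in no member window and in 0.991% of all windows, which says only that these letters are not in those 300-base windows. Forms that differ only in the last base were not counted, neither in members nor in all windows. They do occur: ASNS holds tgatgaaac, and CHAC1 and HERPUD1 hold gttgcatca, which is read on the opposite strand. These examples are from members called higher. The share of uncalled members or of all windows with such a form is not known, so the examples say nothing about the calls.

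Other genes of the pathway were counted in 9 lists that share no gene with the 34. Of 168 tested, 6 were called higher (3.57%) and 8 lower (4.76%), beside 5.97% and 6.79% of all genes. The share called higher was above that of all genes with DESeq2 (23 genes, 13.7% beside 10%) and without both set-apart libraries (39 genes, 23.2% beside 14.9%). The 26 ATF4 targets tested made up 12 of each of those counts. With limma and all 6 libraries, the 6 higher genes were all such targets: VLDLR, SHMT2, STC2, CTH, SARS1 and SLC7A5. VLDLR, a lipoprotein receptor, was at 1835, 1449 and 2368 normalized counts in the wild type and 5623, 8282 and 6635 in the knockout (log2 fold change 1.87, SE 0.25, limma adjusted p = 0.00314). SHMT2, a mitochondrial enzyme of serine breakdown, was at 2719, 3032 and 2856 against 5983, 7125 and 7026 (1.22, SE 0.17, limma adjusted p = 0.00421). STC2, a secreted glycoprotein, was at 589, 451 and 476 against 1259.7, 1154 and 1207 (1.26, SE 0.21, limma adjusted p = 0.00777).

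Not every ATF4 target went that way. GDF15, a secreted stress hormone, was at 1009, 840.1 and 964 normalized counts in the wild type and 1.27, 41.2 and 25.8 in the knockout, 41.2-fold lower by the means (log2 fold change -6.09, SE 0.99, limma adjusted p = 0.00751). ATF3, a factor that is also induced through other pathways, was the other target called lower, at -1.08. The median of the 26 was 0.50, with 19 above 0. ATF3, CTH, SARS1 and SLC7A5 are named here after their values were seen.

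With limma and all 6 libraries, as with edgeR, none of the ER folding lists held a gene called higher. Of all genes, limma called 5.97% higher and edgeR 5.57%. With DESeq2 and without both set-apart libraries, the genes called higher numbered 3 and 5 of 23 chaperones and isomerases, 1 and 3 of 16 oxidative folding enzymes, 1 and 0 of 8 glycan cycle genes, and 3 and 6 of 24 degradation genes. Those fits called 10% and 14.9% of all genes higher. FKBP10, a prolyl isomerase for collagen, was called lower among 23 further chaperones and isomerases with 1137, 1417 and 975 normalized counts against 319, 275 and 329.7 (-1.92, SE 0.23, limma adjusted p = 0.00231). KDELR3, a receptor that returns escaped ER proteins, was called lower among 25 export and retrieval genes, at 639, 574 and 701 normalized counts against 45.8, 20.1 and 8.89 (-4.90, SE 0.55, limma adjusted p = 0.00167). Among further degradation genes ERLIN1 (-1.62) and UBXN4 (-0.99) were called lower, of 24 tested. The ER-membrane transcription factors CREB3L4 (-1.15) and CREB3L2 (-1.04) were called lower of 10 tested; CREB3L2 lies on chromosome 7 from 137874979 to 138002067. In 4 lists with 60 tested genes there were 0 calls with limma and 0 with edgeR. They were eIF2 kinases and eIF2 control, oxidative folding enzymes, the glycan folding cycle and the translocon. Of the 60, DESeq2 called 4 higher and 1 lower, beside 10% and 10.7% of all genes. At an unadjusted p under 0.05 with limma, 7 were higher and 2 lower, beside 13.2% and 14.3% of all genes. When both set-apart libraries were left out, 2 of 11 eIF2 genes and 8 of 25 translocon genes were called higher, and 0 and 1 lower. That fit called 14.9% of all genes higher and 14% lower. Without both set-apart libraries the 168 genes gave 39 higher and 15 lower, and 3 higher and 3 lower when replicate 1 or 3 of the wild type or replicate 3 of the knockout was left out.

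Chaperones outside the ER were counted for comparison. Of 20 cytosolic and mitochondrial chaperones 3 were called higher and 0 lower with limma and with edgeR. Of all genes, limma called 5.97% higher and 6.79% lower, and edgeR 5.57% and 6.42%. DESeq2 called 6 higher and 0 lower, beside 10% and 10.7% of all genes. Without both set-apart libraries 14 were higher and 0 lower, beside 14.9% and 14% of all genes. At an unadjusted p under 0.05 with limma there were 7 and 0, beside 13.2% and 14.3% of all genes. The 20 chaperones had a median log2 fold change of 0.51. The 3 were HSPA1B (1.51, limma adjusted p = 0.00241), CRYAB (1.64, 0.0195) and DNAJB1 (1.04, 0.0221), heat shock proteins of the cytosol. Reads of the near-identical HSPA1A could have been counted for HSPA1B. Whether the ER and the cytosolic lists differ was not tested.

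**Figure D5:**
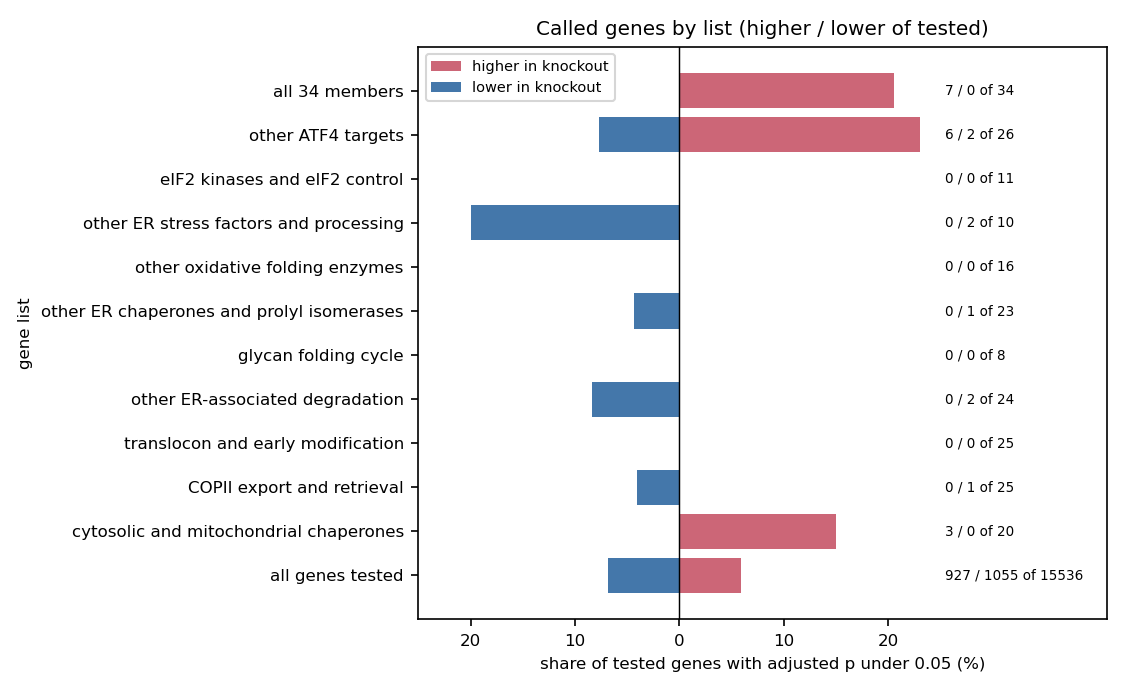
Share of tested genes with a limma adjusted p under 0.05 in each list, all 6 libraries, higher in the knockout to the right in red and lower to the left in blue, in percent; the text at right gives the counts. The 34 genes (7 higher, 0 lower) and the other ATF4 targets (6 higher, 2 lower) have the largest shares to the right, and the other ER lists have none there.

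Some markers of other cell types were called as well, where 5.97% of all tested genes were called higher and 6.79% lower. Of 6 smooth muscle markers 4 were called higher, with a summed level of 35625 to 40798 normalized counts in the wild type and 114150 to 144822 in the knockout. Of 10 fibroblast markers 9 were tested, with 3 higher and 1 lower (sums of 12952 to 26548 and 7972 to 16480). FAP had no read in any library. Of 7 epithelial markers 2 were higher and 2 lower, with sums of 134034 to 141706 and 284171 to 315229. Liver and endoderm markers, typical of cells that secrete much protein, summed to 1839 to 3242 in the wild type and 1561 to 1813 in the knockout. Of these 10, 7 were tested, with 1 higher and 2 lower (FOXA2 had at most 3 reads in any library). Of the markers tested, 3 of 6 neural, 1 of 6 pluripotent and 1 of 5 epicardial ones were called higher, and 0 lower (MSLN had at most 3 reads). Endothelial markers summed to 181 to 477 and 430.1 to 584, with 0 called of 4 tested (CDH5 had at most 3 reads). The part of these cells in the differences above was not tested.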

How the data were processed

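The deposited table holds a signal per gene and library, called normalized counts by the authors; the submitters' processing notes name bcl2fastq 2.19, kallisto 0.44.0, DESeq2 1.28.1 and GRCh38, without their roles. The annotation, filters and use of strand are not given in the sources used here. Per the labels' protocols, RNA was column-purified with DNase, made into cDNA with a Clontech low-input kit and into NexteraXT libraries. In each library 100% of the deposited values were whole multiples of 1 step within 0.01, so whole counts were recovered, called reads here. Whether they were observed reads or rounded estimates is not given in the sources used here. Replicates differed by far more than counting noise (chi-square per degree of freedom of at least 19.9), so each library was counted once. The labels call them biological replicates of 1 line each, so p-values measure the spread within these 2 lines.

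The main test was limma 3.58.1 (R 4.3.3) on log2(value + 1) with a variance trend, over 15536 genes with a mean of at least 10 and with Benjamini-Hochberg adjustment; fold changes on that scale understate the change of low genes. edgeR 4.0.16 and DESeq2 1.42.0 ran on the recovered reads. The fits were tested on simulated data. The members and gene lists were chosen with earlier results of these data known. Called members, sensors, transcription factors and up to 4 called, non-overlapping genes with the lowest adjusted p per other list were to be named. Lengths are of the principal transcript in GENCODE 29 (99.3% of tested genes). The 5 Mb window and the motifs were chosen after the values were seen. Of 12 pseudogenes named after members, none exceeded 0.250% of its gene's level. Summaries and plots used Python 3.11.15 with matplotlib 3.10.9.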

Additional observations from a re-analysis of the deposited data

How the results depend on the processing

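Direction held in the alternatives for each of the 7 genes called, and the calls varied. Counts of members called higher, 7 with all libraries, were 11 without both set-apart libraries, 4 with equal totals, 4 with eBayes without a trend, 2 with a replicate block and 2 to 6 with 1 library left out. Members called lower numbered 4 without both set-apart libraries, 0 with any 1 library left out, and 1 (PDIA4) with DESeq2, equal upper quartiles, the length trend removed, a pseudocount of 10 or quantile normalization. The members' median turned to -0.13 with equal totals, which moved that of all genes to -0.27. All genes called, 1982 with limma, numbered 3210 with DESeq2, 4483 without both set-apart libraries, 2985 with the length trend removed, 798 with the replicate block and 796 to 2181 with 1 library left out, the lowest without wild-type replicate 1 (796), wild-type replicate 3 (916) and knockout replicate 3 (962). The other ER genes called higher, 6 with limma, were 23 with DESeq2, 39 without both set-apart libraries, 23 with the length trend removed, 2 with the replicate block and 3 to 10 with 1 library left out. Those called lower, 8 with limma, were 15 without both set-apart libraries, 3 with the replicate block and 3 to 10 with 1 library left out. STK25 had -1.12 with an adjusted p of 0.0684 under the replicate block, and -1.24 to -1.05 with 1 library left out. Deviations of same-numbered libraries of the 2 genotypes correlated at r = -0.235, -0.400 and 0.169. The set-apart libraries, which carry different numbers, correlated at 0.448. These values cannot show whether same-numbered samples were prepared together, because the set-apart libraries weigh on them. Of 680 gene values under an alternative, 59 changed sign. With equal totals these were ERN1 (-0.11), HSPA5 (-0.22), HSP90B1 (-0.25), CALR (-0.19), P4HB (-0.13), PDIA3 (-0.12), PDIA6 (-0.20), SDF2L1 (-0.28), SEL1L (-0.14), EDEM1 (-0.14) and DERL1 (-0.22). With quantile normalization they were HSPA5 (-0.36), HSP90B1 (-0.23), CALR (-0.075), P4HB (-0.080), PDIA3 (-0.087), PDIA6 (-0.12), SDF2L1 (-0.016), SYVN1 (0.19), DERL1 (-0.0059) and DERL3 (0.042). With equal upper quartiles they were HSP90B1 (-0.011) and SDF2L1 (-0.045). Without both set-apart libraries they were SDF2L1 (-0.081), EDEM1 (-0.041), DERL1 (-0.025) and SEC24D (0.29). With the length trend removed they were SDF2L1 (-0.14) and SYVN1 (0.013), with DESeq2 SYVN1 (0.042) and SEC24D (0.080), and with edgeR SYVN1 (0.026) and SEC24D (0.073). With 1 library left out, the ranges that crossed 0 were ERN1 -0.011 to 0.27, EIF2AK3 -1.76 to 0.12, HSPA5 -0.11 to 0.27, HSP90B1 -0.070 to 0.16, CALR -0.0088 to 0.17, SDF2L1 -0.35 to 0.27, SEL1L -0.30 to 0.62, SYVN1 -0.30 to 0.14, EDEM1 -0.13 to 0.32, DERL1 -0.21 to 0.25, DERL3 -0.41 to 0.15 and SEC24D -0.68 to 0.61. The cause was not tested. No member had under 44 reads in a library.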
